A study of Mus musculus with 6 samples.

Results

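The canonical histone genes of mouse sit in clusters named Hist1 to Hist4. They were taken as the protein-coding genes whose symbols begin with Hist1h, Hist2h, Hist3h or Hist4h and that had at least 10 UMIs (unique molecular identifiers, each standing for a captured RNA molecule) over all barcodes. Of 67 protein-coding genes with such a symbol, 60 were members, among 29465 genes with at least 1 UMI. The members comprised 49 genes of Hist1 on chromosome 13, 8 of Hist2 on chromosome 3, 2 of Hist3 on chromosome 11 and 1 of Hist4 on chromosome 6. By protein they were 5 genes for the linker histone H1, 15 for H2A, 16 for H2B, 11 for H3 and 13 for H4. Just inside the minimum were Hist1h2bp and Hist1h4b with 16 UMIs each and Hist1h4f with 13. Just outside were Hist1h1t with 9, Hist2h2aa2 with 2 and Hist1h2ao with 1, and the other 4 genes had 0.

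The series concerns cytokine responses of mouse ATII cells (alveolar type II cells, which make surfactant and renew the alveolar epithelium) and how age bears on them. The labels give 3 expression libraries, each of ATII cells: day 13, with young and old animals combined; day 13, young animals only; and day 0, freshly sorted, again with both ages. All carry the genotype label IL4Ra WT and the treatment label of a mixed sample. Alveolarspheres were cultured free of serum and feeders and were given 10 ng/ml of cytokine or PBS on day 3, and the title names IL-4 where the design text gives another interleukin number. Strain and exact ages are not given in the sources used here, and each group is a single library that pools animals and treatments under multiplexing tags.

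The deposited matrix held 3 library tokens that match no label, called libraries A, B and C here. Their day, age and treatment are therefore unknown, and no comparison of cytokine with PBS, old with young or day 13 with day 0 was made. Without replicates no test was run. The intervals printed are exact, at 95%, and speak to counting error alone, and libraries are set side by side without a fold between them. After filtering, libraries A, B and C held 16367, 5593 and 14580 cells with median depths of 3749, 8349 and 3341 UMIs. Few barcode sequences occurred in more than 1 library: 20 in A and B, 67 in A and C, and 22 in B and C. Cells with at least 1 UMI of Top2a or Mki67, genes of chromosome untangling and of proliferation, are called dividing cells, and cells with none are called other cells. Dividing cells were 171 in library A (1.04%, interval 0.895 to 1.21%), 1512 in library B (27.0%, 25.9 to 28.2%) and 2558 in library C (17.5%, 16.9 to 18.2%). The name stands for this rule only: 149 of the 171 cells in A, 708 of the 1512 in B and 1006 of the 2558 in C had a single such UMI. No UMI of the 20 replication and mitosis genes described below was found in 74.9% (67.7 to 81.2%) of dividing cells in A, 30.6% (28.2 to 32.9%) in B and 14.4% (13.1 to 15.8%) in C. Conversely, 0.901%, 13.1% and 3.81% of all cells of A, B and C without UMIs of those genes had a Top2a or Mki67 UMI, and how many such UMIs come from free RNA was not tested. They were also deeper, with medians of 4171, 10266.5 and 5213.5 UMIs in dividing cells of A, B and C, against 3747, 7741 and 3141 UMIs in other cells. The 6 further genes of the dividing list that the definition did not use (Birc5, Aurkb, Cenpf, Nusap1, Ube2c and Cdk1) were all at least 2-fold higher in dividing cells of libraries B and C.

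Markers of ATII cells were abundant in each library: the 8 ATII markers, led by the surfactant gene Sftpc, summed to between 112465 and 308620 counts per 1000000 UMIs (CPM) in dividing cells, against 133019 to 328801 CPM in other cells. None of the 8 differed 2-fold between dividing and other cells in both B and C. Between libraries their levels were uneven, and the sums were mostly Sftpc, with 255076, 128764 and 116228 CPM over all cells of A, B and C. Lyz2 had 33575, 234 and 145 CPM there, Slc34a2 2758, 430 and 425 CPM, and Lamp3 1764, 364 and 349 CPM. Of 6 markers of alveolar type I cells, Ager and Hopx were at least 2-fold lower in dividing cells of B and C. Cav1 and Clic5 were also lower in both. Rtkn2 went the other way, with log2 ratios of dividing over other cells of 1.08 (0.25 to 1.92) in B and 0.93 (0.33 to 1.52) in C. Pdpn had 0.91 (0.32 to 1.51) in B and -0.31 (-0.61 to -0.01) in C. The list summed to 173 CPM in dividing cells against 333 CPM in other cells of B, to 312 against 827 CPM in C, and to 723 against 688 CPM in A. Fibroblast and erythroid lists summed to at most 0.25 CPM in any group, ciliated cell genes to at most 2.51 CPM and immune genes to at most 11.3 CPM, of which Cd68 gave 10.7. The endothelial list was at most 1.36 CPM in B and C, and in A its sum of 135 CPM in dividing cells and 88.2 CPM in other cells came from Pecam1, with Cdh5 at 0. The part of these differences in the histone results was not tested.

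Canonical histones package new DNA. Pairs of H2A-H2B and H3-H4 form the nucleosome core, and H1 binds the linker between cores. In animals most of their mRNAs are made in S phase and, unlike other mRNAs, end just after a short stem-loop that is bound by the protein SLBP instead of carrying a poly(A) tail. Some cluster genes also give longer, polyadenylated transcripts. The droplet kit used here primes on poly(A), so the UMIs count the histone transcripts that this priming caught, and levels may be caught to a different degree for different genes. A UMI counts a 3′ end, so CPM is not divided by length here.

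The stem-loop was searched for in GENCODE M21 transcripts on GRCm38 as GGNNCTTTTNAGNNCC, with N for any base, on the transcript's strand, within 150 bases after the stop codon. It was found in 40 of the 60 members, and the words of the 29 members outside H4 shared the form GGCTCTTTTNAGAGCC. Of the 60 members, 43 have at least 60 annotated bases after the stop codon, a minimum that members were not held to, and 11 have none. Among 20472 other protein-coding genes with at least 60 annotated bases after the stop codon, 3 matched (0.0147%): H2afx, H2bfm and Lrrc75b. The elements of 6 members are shown because the results below turn on these genes. Capitals mark the stem-loop, whose position on GRCm38 is given, with 5 transcript bases on each side.
Hist1h1e, chr13:23621782-23621797, minus strand: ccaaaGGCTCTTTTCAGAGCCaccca
Hist1h3c, chr13:23745047-23745062, minus strand: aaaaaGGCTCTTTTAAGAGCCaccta
Hist2h2ac, chr3:96220418-96220433, minus strand: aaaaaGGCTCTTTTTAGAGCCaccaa
Hist1h4d, chr13:23581950-23581965, plus strand: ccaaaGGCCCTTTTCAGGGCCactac
Hist3h2a, chr11:58955172-58955187, plus strand: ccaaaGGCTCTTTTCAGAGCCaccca
Hist4h4, chr6:136803998-136804013, minus strand: acaaaGGCCCTTTTCAGGGCCcacaa
The commonest word, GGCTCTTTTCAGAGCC, was shared by 23 members of H1, H2A, H2B and H3. In H4 genes the stem read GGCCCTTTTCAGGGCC in 7 of 11. Hist1h1e, Hist1h3c, Hist2h2ac and Hist1h4d were higher in dividing cells, and Hist3h2a and Hist4h4, which carry the same words as Hist1h1e and Hist1h4d, did not reach, in B or C, the 2-fold threshold used below.

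Summed over the 60 members, histone cluster transcripts made up 1268 CPM (1250 to 1285) in dividing cells and 290 CPM (284 to 295) in other cells of library B, a log2 ratio of 2.13 (2.10 to 2.17). In library C the sums were 912 CPM (896 to 928) in dividing cells and 123 CPM (120 to 127) in other cells, a log2 ratio of 2.89 (2.84 to 2.93). Library A had 399 CPM (355 to 447) in its dividing cells and 220 CPM (216 to 223) in other cells, with a log2 ratio of 0.86 (0.69 to 1.03). Dividing cells thus held 68.2% of member UMIs in B and 71.0% in C, while they held 32.9% and 24.9% of all UMIs there. In library A they held 2.08% of member UMIs and 1.15% of all UMIs. The value in A rested on how dividing cells were defined: with at least 2 Top2a or Mki67 UMIs, which 22 of its cells had, the log2 ratio was 2.43, against 2.71 in B and 3.26 in C.

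A member is called raised when its log2 fold of dividing over other cells, with a pseudocount of 0.5 CPM, was at least 1 and the 2 groups together held at least 20 UMIs. In library B, 41 of the 45 members with enough UMIs were raised, where 4.14% of all 13799 genes with enough UMIs were. In library C, 36 of 44 were raised, against 5.65% of all 14118 genes. In both libraries together, 34 of 42 were raised, against 3.92% of all genes, and 0 of 42 were 2-fold lower, against 0.278% of all genes. Taken singly, 0 of 45 members were 2-fold lower in B and 0 of 44 in C, against 0.428% and 1.37% of all genes. The minimum of 20 UMIs counts both groups, so some members reached it mainly through dividing cells. In B, Hist1h2ap had 93 UMIs in dividing cells and 0 in other cells, and Hist1h2bn had 20 and 2. For such members being callable and being raised are linked, so these shares do not stand apart from the minimum. Over all 60 members, whatever their counts, the median log2 fold was 1.44 in B and 1.85 in C, beside 0.15 and 0.17 over all genes with enough UMIs. In library A, 14 of 22 members were raised, against 8.06% of all genes, and 0 of 22 were 2-fold lower, against 12.7%. Some of these calls in A rested on very few UMIs of dividing cells. Hist1h4a had 1 (log2 ratio 2.17, -3.20 to 4.83) and Hist2h3c2 had 2 (1.33, -1.74 to 3.24). The interval of the ratio in A also included 0 for Hist1h4c, Hist1h3e, Hist1h4h and Hist4h4.

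The 60 members fell into 34 raised in B and C, 4 raised in B only, 4 raised in neither, and 18 with under 20 UMIs in B or C, which are not called. Raised in B only were Hist1h1c, Hist1h4i, Hist1h2bk and Hist1h4n, whose log2 folds in C lay between 0.42 and 0.91, under the threshold. Raised in neither were Hist1h2bc, Hist3h2a, Hist4h4 and Hist3h2ba. Without regard to the call, the level was higher in dividing cells for 58 of 60 members in B, for 57 in C and for 30 in A, where 10 members had no UMI at all. With enough UMIs, 44 of 45 members in B, 42 of 44 in C and 19 of 22 in A were higher, against 68.7%, 65.6% and 52.4% of all genes. By cluster, 30 of 49 Hist1 genes were raised in B and C, and 14 had too few UMIs. Of 8 Hist2 genes, 4 were raised in B and C and the other 4 had too few UMIs. Both Hist3 genes and the single Hist4 gene were raised in neither.

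**Figure D1:**
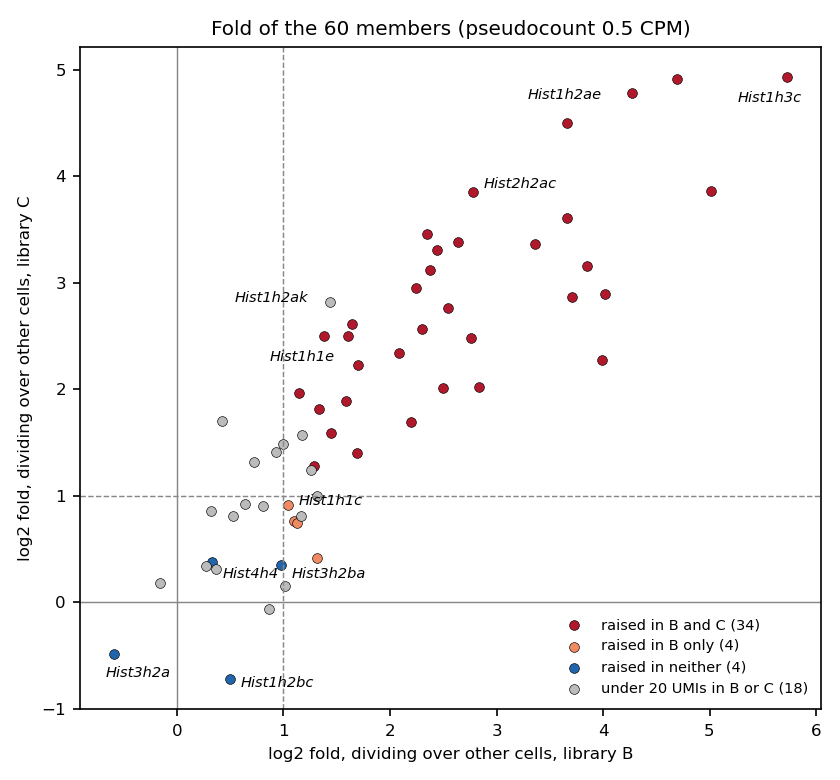
Log2 fold of dividing over other cells (pseudocount 0.5 CPM) of each of the 60 members in library B (horizontal) and library C (vertical), with dashed lines at the threshold of 1. The 34 members raised in both libraries spread up to 5.73 in B and 4.93 in C (Hist1h3c), and Hist1h2bc lies above 0 in B and below 0 in C.

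Counts were concentrated in few genes. Over all libraries together, Hist1h1e alone held 27.3% of member UMIs, the 5 most abundant members held 66.3% and the 10 most abundant held 81.9%, whereas the 26 members with under 100 UMIs held 2.01%. The order differed between libraries: Hist1h1e came first in B (40.1% of member UMIs) and C (23.5%), whereas in A Hist1h2bc held 53.9% and Hist1h1e, in the fifth place, 4.86%. The 8 most abundant members among those raised in B and C are described by protein, followed by the others of each type.

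Among the linker histones, Hist1h1e had the most UMIs of all members over the 3 libraries together. It had 447 CPM in dividing cells and 146 CPM in other cells of B (log2 ratio 1.61, 1.56 to 1.67), and 198 CPM in dividing cells and 34.6 CPM in other cells of C (2.51, 2.42 to 2.61). In A it had 34.0 and 10.5 CPM in dividing and other cells. It had the smallest log2 ratio of these 8 members in both B and C, and its level in other cells was the highest of any raised member there. Its annotated transcript overlaps exons of Hist1h2be on the same strand, so reads of these genes may be split between them. Hist1h1b behaved differently: it had 31.3 CPM in dividing cells and 0.735 CPM in other cells of B (5.41, 4.82 to 6.07), and 65.6 and 1.70 CPM in dividing and other cells of C (5.27, 4.92 to 5.65). Hist1h1d lay between them, with 36.1 and 6.28 CPM in dividing and other cells of B (2.53, 2.29 to 2.76) and 21 and 1.67 CPM in those of C (3.65, 3.26 to 4.06). Hist1h1a was raised as well, with log2 ratios of 4.44 in B and 3.64 in C. Hist1h1c, the second most abundant H1 gene, had 64.7 CPM in dividing cells and 31.2 CPM in other cells of B, and 21.8 and 11.4 CPM in those of C, with log2 ratios of 1.05 (0.93 to 1.18) and 0.93 (0.72 to 1.15), just above the threshold in B and just below it in C. As a type, H1 made up 47.2% of member UMIs in dividing cells and 64.0% in other cells of B, and 35.1% and 40.9% in dividing and other cells of C.

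The H2A genes had among the largest differences. Hist2h2ac had 114 CPM in dividing cells and 16.2 CPM in other cells of B (2.81, 2.67 to 2.96), and 53.8 and 3.27 CPM in dividing and other cells of C (4.04, 3.77 to 4.32). Hist1h2ae had 51.2 CPM in dividing cells and 2.17 CPM in other cells of B (4.56, 4.21 to 4.93), and 155 and 5.17 CPM in those of C (4.91, 4.70 to 5.12). In dividing cells of C, Hist1h2ae was second only to Hist1h1e among the members, whereas in B it followed Hist1h1e, Hist1h4d, Hist2h2ac, Hist1h3c and Hist1h1c. Hist1h2ab had 24.5 and 0.276 CPM in dividing and other cells of B (6.48, 5.54 to 7.62). Hist1h2ap had 93 UMIs in dividing cells and 0 in other cells of B, at least 63.2-fold higher when 3 UMIs are allowed for the group at 0, and 27.2 and 0.724 CPM in dividing and other cells of C (5.23, 4.68 to 5.83). As a type, H2A summed to 227 CPM in dividing cells and 23.0 CPM in other cells of B (3.30, 3.19 to 3.42), and to 281 and 13.5 CPM in those of C (4.38, 4.25 to 4.51). Hist3h2a, from another cluster, went the other way, with 1.62 CPM in dividing cells and 2.69 CPM in other cells of B (-0.73, -1.42 to -0.09), and 1.43 and 2.22 CPM in those of C (-0.63, -1.43 to 0.09).

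H3 had the largest difference in B as a type, with 150 CPM in dividing cells and 9.49 CPM in other cells (3.99, 3.81 to 4.16). In C the H3 sums were 111 CPM in dividing cells and 6.59 CPM in other cells (4.08, 3.89 to 4.27). Most of the H3 counts came from Hist1h3c, which had 89.2 and 1.19 CPM in dividing and other cells of B (6.22, 5.77 to 6.72) and 63.2 and 1.60 CPM in those of C (5.31, 4.94 to 5.70). Even in library A, where dividing cells are few, 12 of its 15 UMIs lay in the 171 dividing cells. Hist1h3e had 33.2 and 4.90 CPM in dividing and other cells of B (2.76, 2.50 to 3.02) and 24.4 and 1.90 CPM in those of C (3.69, 3.32 to 4.07). Hist1h3f had 10.1 and 1.32 CPM in dividing and other cells of B and 5.43 and 0.374 CPM in those of C. Of the 11 H3 members, 8 were raised in B and C and 3 had too few UMIs.

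H4 and H2B were more mixed. Hist1h4d led H4, with 150 CPM in dividing cells and 28.4 CPM in other cells of B (2.40, 2.29 to 2.51) and 79.7 and 8.73 CPM in dividing and other cells of C (3.19, 3.01 to 3.37). Hist1h4i had 13.4 and 6.0 CPM in dividing and other cells of B (1.16, 0.88 to 1.45) and 13.1 and 7.54 CPM in those of C (0.80, 0.52 to 1.07). Hist1h4c had 4.68 and 1.84 CPM in dividing and other cells of B and 8.15 and 1.72 CPM in those of C. Hist4h4 had 1.12 and 0.796 CPM in dividing and other cells of B (0.50, -0.46 to 1.42) and 1.06 and 0.699 CPM in those of C (0.60, -0.44 to 1.57), so no difference was detectable at this depth. In A it had 9.53 CPM in dividing cells (7 UMIs) and 4.40 CPM in other cells, which passed the call there with a log2 fold of 1.03, although the interval of the ratio included 0 (1.11, -0.21 to 2.18). H4 was also the type with most members too sparse to call, 7 of 13.

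Among H2B genes, Hist1h2bc held most of the UMIs and was not raised. It had 35.9 CPM in dividing cells and 25.2 CPM in other cells of B (0.51, 0.35 to 0.66), 14.9 and 25.0 CPM in dividing and other cells of C (-0.74, -0.97 to -0.52), and 118 and 120 CPM in those of A (-0.01, -0.33 to 0.29). The sign thus differed between B and C beyond counting error. Hist1h2be had 15.3 and 1.84 CPM in dividing and other cells of B (3.06, 2.65 to 3.49) and 8.68 and 1.15 CPM in those of C (2.92, 2.41 to 3.44). Hist2h2bb had 19.8 and 1.10 CPM in dividing and other cells of B (4.17, 3.67 to 4.71) and 12.6 and 0.574 CPM in those of C (4.46, 3.82 to 5.15). Hist3h2ba fell just short of the call in B, with 2.00 and 0.765 CPM in dividing and other cells (1.38, 0.58 to 2.20, and a log2 fold of 0.98 with the pseudocount), and had 1.51 and 1.07 CPM in those of C (0.49, -0.35 to 1.29). With Hist1h2bc included, H2B had the smallest log2 ratio of the 5 types in C, 1.47 (1.35 to 1.58), while in B it had 1.80 (1.69 to 1.91), next to 1.69 (1.65 to 1.74) for H1.

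**Figure D2:**
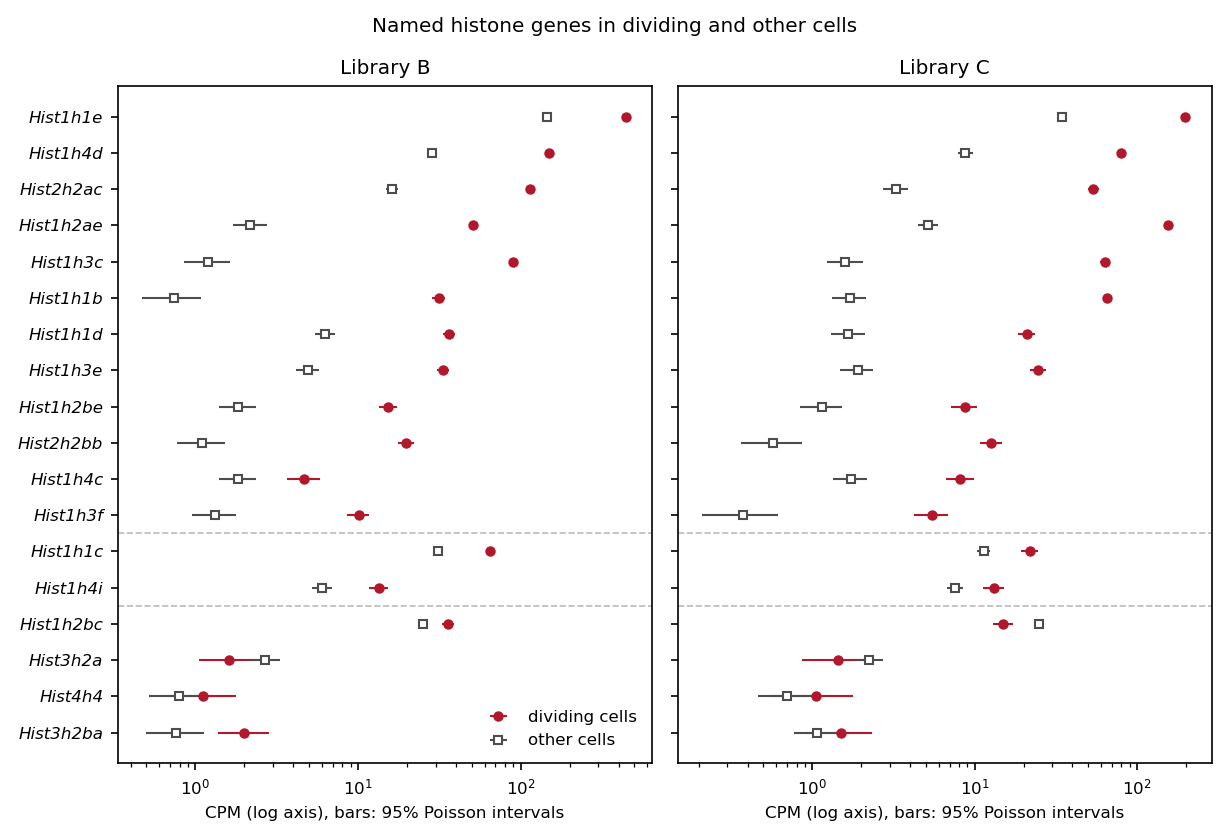
CPM of the named members (log axis) in dividing cells (filled circles) and other cells (open squares) of libraries B and C, with 95% Poisson intervals. Dashed lines separate, from the top, members raised in B and C, in B only and in neither, and the circles of Hist1h2bc lie to the right of the square in B (35.9 against 25.2) and to its left in C (14.9 against 25.0).

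Across the libraries, 3 of the 4 members raised in neither had their highest level in library A. In other cells of A, Hist1h2bc stood at 120 CPM (117 to 122), beside 25.2 CPM in B and 25.0 CPM in C. Hist3h2a had 15.6 CPM in other cells of A, beside 2.69 CPM in B and 2.22 CPM in C. Hist4h4 had 4.40 CPM there, beside 0.796 and 0.699 CPM in B and C. Hist2h2be, which was too sparse to call, had 5.80 CPM in other cells of A, beside 0.337 and 0.274 CPM in B and C. Hist3h2ba was the exception among members raised in neither, with 6 UMIs in the whole of A. In other cells, members raised in B and C summed to 53.2 CPM in A, 220 CPM in B and 73.1 CPM in C. They were uneven in A: 7 of the 34 had no UMI in its other cells. Hist1h3c had 0.0477 CPM there, beside 1.19 CPM in B and 1.60 CPM in C. Some raised members were instead highest in other cells of A. Hist1h2be had 4.59 CPM there, beside 1.84 CPM in B and 1.15 CPM in C. Hist1h4h had 2.91, 1.10 and 0.848 CPM in other cells of A, B and C, and Hist1h2ac 1.84, 0.122 and 0.324 CPM. Hist1h4d was less uneven, with 21.7 CPM in other cells of A, 28.4 CPM in B and 8.73 CPM in C, and Hist1h1c had 19.2, 31.2 and 11.4 CPM. The 4 members raised in neither held 63.5% of member UMIs in other cells of A, 10.2% in those of B and 23.5% in those of C. Hist1h1e, which is part of the sums of raised members, had 10.5 CPM in other cells of A, 146 CPM in those of B and 34.6 CPM in those of C. Which of the study's conditions these levels belong to cannot be told apart.

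**Figure D3:**
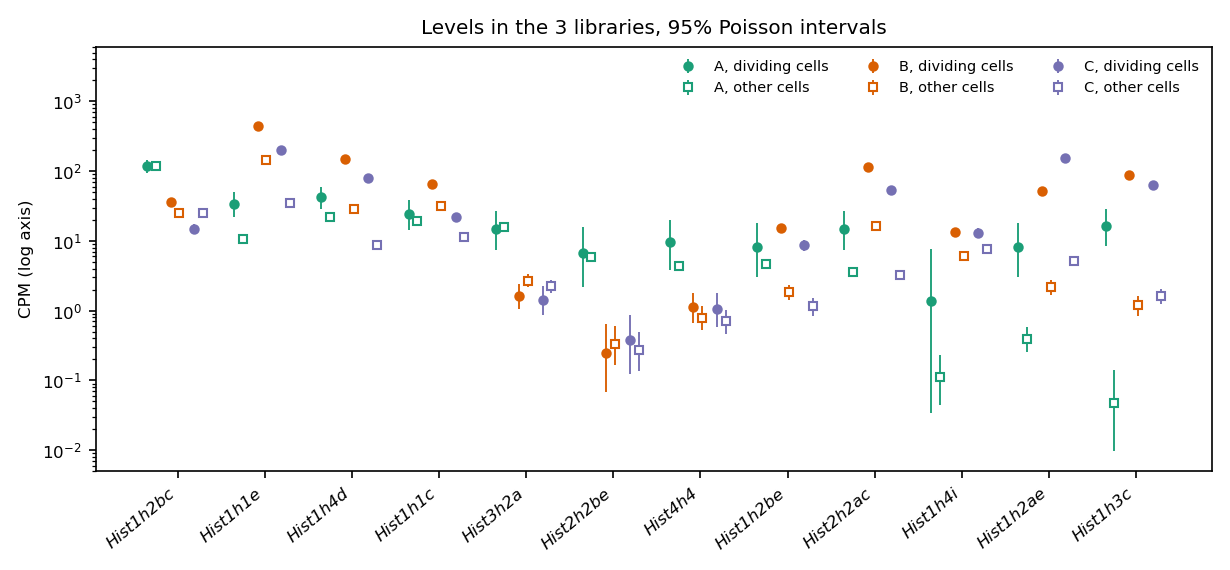
CPM (log axis) of 12 members in dividing cells (filled circles) and other cells (open squares) of libraries A, B and C, with 95% Poisson intervals. Hist1h2bc, Hist3h2a, Hist2h2be and Hist4h4 are highest in library A, where Hist1h3c in other cells is at 0.0477 CPM.

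To see where in the cycle the members were high, cells were also sorted by genes that the dividing definition did not use. S-marker cells had at least 2 UMIs of 12 replication genes (Cdc6, Cdc45, Mcm3, Mcm5 and Mcm6 among them) and none of 8 mitosis genes (Ccnb1, Ccnb2, Cdc20, Plk1, Aurka, Cenpe, Hmmr and Kif20a). Mitosis-marker cells had the reverse, cells with both had at least 2 UMIs of each list, and cells with neither had none. Cells in none of these classes were 11.9% in A, 20.5% in B and 17.9% in C. Cells with both kinds of marker had the highest histone level. In B the members summed to 604 CPM in 164 S-marker cells, 2288 CPM in 458 cells with both, 845 CPM in 285 mitosis-marker cells and 285 CPM in 3539 cells with neither. In C the sums were 351 CPM in 488 S-marker cells, 1240 CPM in 739 cells with both, 579 CPM in 1064 mitosis-marker cells and 104 CPM in 9685 cells with neither. In A, cells with both numbered 13 and reached 1631 CPM (1357 to 1945), while S-marker cells had 256 CPM, mitosis-marker cells 476 CPM and cells with neither 220 CPM.

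Relative to cells with neither, S-marker cells had a log2 ratio of 1.08 (0.99 to 1.18) in B and 1.75 (1.64 to 1.86) in C, cells with both had 3.00 (2.96 to 3.04) and 3.57 (3.51 to 3.63), and mitosis-marker cells had 1.57 (1.5 to 1.64) and 2.47 (2.40 to 2.55). Depth moved with the class: the median was 9479.5, 12441.5, 7563 and 7785 UMIs in the S, both, mitosis and neither cells of B, and 4628, 5943, 3901 and 3046 UMIs in those of C. Cells with at least 2000 UMIs were also thinned to 2000 and classed again, which left out 29 shallower cells of B and 1289 of C. The S-marker ratio was then 2.04 (1.84 to 2.24) in B and 2.28 (2.13 to 2.44) in C, higher than before thinning. Thinning also changed which cells were S-marker cells, 87 in B and 331 in C. What part depth and the changed classes had in the higher ratios was not tested. Whether cells with both markers include droplets with 2 cells was not tested.

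**Figure D4:**
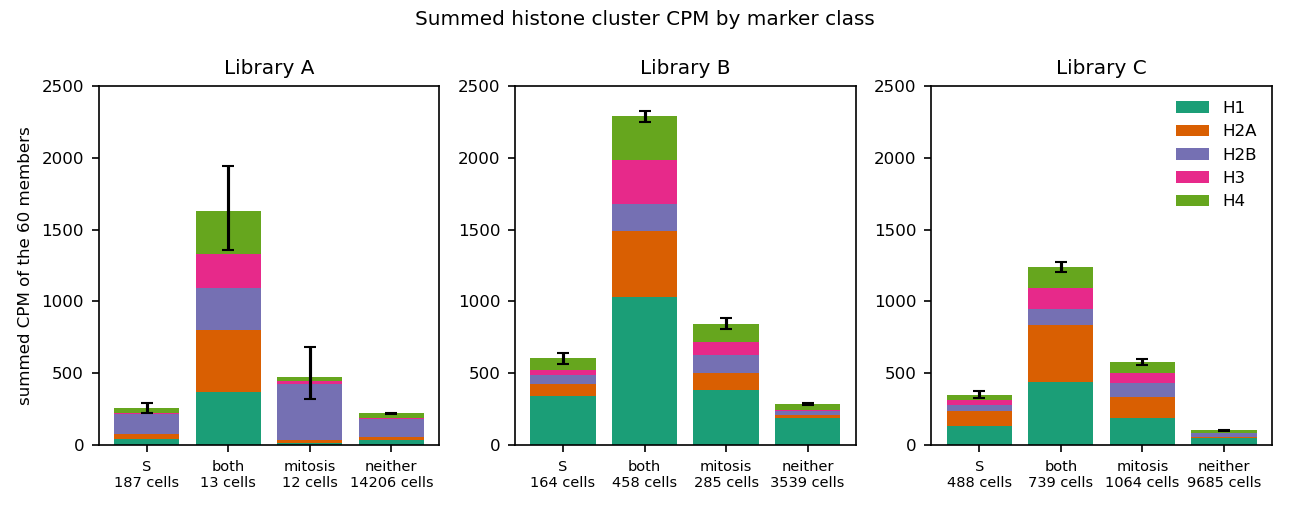
Summed CPM of the 60 members in S-marker cells, cells with both markers, mitosis-marker cells and cells with neither, for libraries A, B and C, stacked by histone type, with the 95% Poisson interval of the total. Cells with both are highest in each library, at 1631, 2288 and 1240 CPM, and in library A the mitosis bar of 12 cells is mostly H2B.

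Of the 34 members with at least 20 UMIs over these classes in B and in C, 27 had their highest level in cells with both markers in both libraries. Hist1h3c had 17.3, 187 and 51.9 CPM in S, both and mitosis cells of B, and 0.886 CPM in cells with neither. Hist1h2ae had 60.4, 220 and 77.6 CPM in S, both and mitosis cells of C, and 1.83 CPM in cells with neither. Hist1h1e had 232, 763 and 271 CPM in S, both and mitosis cells of B, and 153 CPM in cells with neither.

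Hist1h2bc had another order. It had 33.3 CPM in S-marker cells, 34.8 CPM in cells with both, 75.7 CPM (65.0 to 87.6) in mitosis-marker cells and 18.0 CPM in cells with neither of B. In C these levels were 12.3, 11.3, 44.0 (38.1 to 50.6) and 19.1 CPM, and in A they were 130, 105, 378 (239 to 567) and 120 CPM, the mitosis value resting on 23 UMIs in 12 cells. In each library mitosis-marker cells were thus highest, with intervals apart from those of cells with neither. Hist3h2ba also had its highest value in mitosis-marker cells of both B and C, but from 7 and 8 UMIs and with overlapping intervals: 2.98 CPM (1.20 to 6.13) there and 2.78 CPM (1.59 to 4.52) in cells with both in B, and 1.77 CPM (0.764 to 3.49) there and 1.06 CPM (0.728 to 1.49) in cells with neither in C. Hist1h1c peaked in cells with both in B, at 97.6 CPM, and in mitosis-marker cells in C, at 25.4 CPM, where cells with both had 21.6 CPM and the intervals of these classes overlapped. Hist3h2a and Hist4h4 showed no common order in B and C. The members raised in neither summed to 38.8, 40.9 and 81.6 CPM in S, both and mitosis cells of B, and 22.3 CPM in cells with neither. In C the same sums were 14.5, 14.4, 49.5 and 23.2 CPM.

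Members whose annotated transcripts run far past the stop codon had, in sum, smaller differences than the others. This split, at 300 bases, was chosen after the values were seen. The 20 members with more than 300 annotated bases after the stop codon summed to 820 CPM in dividing cells and 257 CPM in other cells of B (1.67, 1.63 to 1.71), and to 409 and 98.4 CPM in those of C (2.05, 2.00 to 2.11). The 40 members with at most 300 bases summed to 448 CPM in dividing cells and 32.1 CPM in other cells of B (3.81, 3.71 to 3.90), and to 503 and 24.9 CPM in those of C (4.34, 4.24 to 4.43). In A the log2 ratios were 0.50 (0.30 to 0.69) for the long and 3.38 (3.01 to 3.72) for the short members. Long members held 64.7% of member UMIs in dividing cells and 88.9% in other cells of B, and 44.8% and 79.8% in dividing and other cells of C. Hist1h1e, with 1209 bases after the stop codon of which 1153 lie beyond the stem-loop, is one of the long members, as are Hist1h4d with 822, Hist1h1c with 880 and Hist1h2bc with 742 bases. The sums weigh members by their UMIs, so abundant members count most. Other long members had larger log2 ratios than the long sum: Hist1h1d with 4931 bases (2.53 in B, 3.65 in C) and Hist1h2be with 1906 (3.06, 2.92). Hist1h2br, with 823 bases, had 4.93 and 5.01, from 30 and 2 UMIs in dividing and other cells of B. Of the 20 long members, 2 were raised in B only and 3 in neither. Among members raised in neither, Hist4h4 had 2515 bases, Hist3h2a 1700 and Hist3h2ba 213, and Hist1h2bc had no stem-loop match and a spliced transcript. Hist1h3c had 114 bases and Hist2h2ac 94. Of the long members, 11 of the 16 that could be called were raised in B and C and 4 had too few UMIs. Of the short ones, 23 of the 26 that could be called were raised and 14 had too few UMIs. For 11 members the annotation gives no base after the stop codon.

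**Figure D5:**
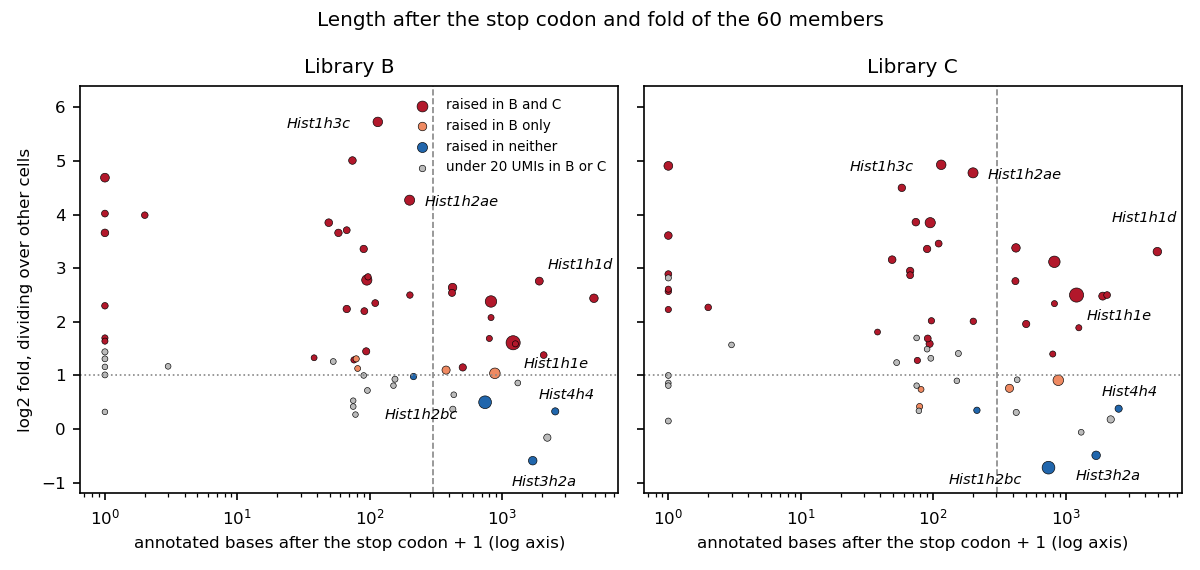
Log2 fold of dividing over other cells (pseudocount 0.5 CPM) against the annotated bases after the stop codon plus 1 (log axis) for the 60 members in libraries B and C, with point area growing with UMIs. The dashed line marks 300 bases and the dotted line the threshold of 1. Hist1h2bc, Hist3h2a and Hist4h4 are among the members below the threshold right of 300 bases in both libraries.

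Near-identical copies limit the single-gene values. Of the 60 members, 39 share at least 1 stretch of 90 bases with another annotated gene in the last 300 bases of their transcript, where 3′ reads fall, and the authors' counting could have split or dropped such reads. None of the 4 members raised in neither shares such a stretch there, and of the 17 members with no shared stretch that could be called, 11 were raised in B and C. Other exons on the same strand overlap Hist1h1e, Hist1h2be, Hist2h2bb, Hist2h2aa1, Hist1h2ac and Hist3h2a (with Trim17).

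The promoters were compared over 300 bases, 250 before to 50 after the start, from RefSeq on GRCm38.p6, where 54 of the 60 members matched. CCAAT, counted on either strand, was present in all 42 promoters of H1, H2A, H2B and H3 genes and in 3 of 12 H4 promoters, against 37.9% of 27025 promoters of all genes. TATAAA was present in 32 of 54, against 14.2% of all. ATTTGCAT, the octamer known from H2B promoters, was present in 11 of 29 H2A and H2B promoters and in 0 of 25 others, against 1.75% of all. These are matches of letters in a window, and H2A and H2B genes that share a region share its matches.

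That sharing is common in the clusters: 12 pairs of an H2A and an H2B gene are read in opposite directions from starts 175 to 305 bases apart. In 10 pairs both genes were members, in 4 both could be called, and in 3 of those both were raised in B and C: Hist1h2ap with Hist1h2br, Hist1h2ag with Hist1h2bj, and Hist1h2ae with Hist1h2bg. The fourth pair was split. Hist1h2ac had 1.12 CPM in dividing cells and 0.122 CPM in other cells of B (3.20, 1.60 to 5.22) and 4.15 and 0.324 CPM in those of C (3.68, 2.79 to 4.67), whereas its partner Hist1h2bc was raised in neither. A like contrast, with too few UMIs for a call, was seen between Hist2h2ac, given above, and Hist2h2be, which had 0.25 and 0.337 CPM in dividing and other cells of B and 0.377 and 0.274 CPM in those of C. The regions between these starts are shown because the partners differ although they share them. They are from RefSeq on GRCm38.p6, read on the minus strand, 5′ to 3′, so that the H2A gene starts at the right end. The bounds are the GENCODE M21 starts, which for Hist1h2bc and Hist2h2be were not matched to a RefSeq start. Capitals mark the motifs CCAAT and TATAAA and the octamer ATTTGCAT, or their reverse complements.
Hist1h2bc to Hist1h2ac, chr13:23683949-23684198: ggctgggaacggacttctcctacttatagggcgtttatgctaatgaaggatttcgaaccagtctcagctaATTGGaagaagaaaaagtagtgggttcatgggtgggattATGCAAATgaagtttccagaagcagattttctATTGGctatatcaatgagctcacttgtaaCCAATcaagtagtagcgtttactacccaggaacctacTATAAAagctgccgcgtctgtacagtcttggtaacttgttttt
Hist2h2be to Hist2h2ac, chr3:96220881-96221118: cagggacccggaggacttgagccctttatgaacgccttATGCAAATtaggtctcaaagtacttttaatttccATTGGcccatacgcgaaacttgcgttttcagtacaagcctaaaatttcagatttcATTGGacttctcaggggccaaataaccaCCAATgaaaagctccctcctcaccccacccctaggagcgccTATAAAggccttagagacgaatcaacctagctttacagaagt
Each region held 5 matches: 3 of CCAAT, 1 of ATTTGCAT and 1 of TATAAA, the last near the start of the H2A gene.

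Genes that handle histone mRNA and protein gave a background to the members. Of 15 genes of histone transcription and mRNA processing, 14 had enough UMIs in B and C and 1 was raised in both, against 3.92% of all genes. This was Srrt, with 17.7 and 7.56 CPM in dividing and other cells of B (1.22, 0.97 to 1.48) and 29.0 and 11.4 CPM in those of C (1.35, 1.15 to 1.55). Slbp, whose protein binds the stem-loop, had 35.8 CPM in dividing cells and 17.9 CPM in other cells of B (1.0, 0.83 to 1.17) and 59.5 and 31.8 CPM in those of C (0.90, 0.77 to 1.03), just under the call in both. Npat, a coactivator of histone genes, had log2 ratios of 0.69 and 0.99 in B and C. Lsm10 and Lsm11, parts of the U7 particle that trims the mRNA end, had -0.06 and 0.04 in B and -0.25 and 0.04 in C.

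Of 15 histone chaperones and acetylation factors, 7 were raised in B and C and 0 were lower, against 3.92% and 0.278% of all genes. Asf1b, which carries H3-H4, had 23.6 and 1.38 CPM in dividing and other cells of B (4.10, 3.65 to 4.58) and 41.3 and 5.22 CPM in those of C (2.98, 2.75 to 3.22), whereas its relative Asf1a had log2 ratios of 0.19 and 0.13. Chaf1a and Chaf1b, subunits of the factor that loads H3-H4 on new DNA, had 3.05 and 1.61 in B and 2.39 and 1.90 in C. Nasp had 1.87 in B and 1.80 in C, and Hira, of the chaperone that acts outside replication, had 0.40 and 0.70.

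Of 12 histone genes outside the clusters, 10 had enough UMIs and 5 were raised in B and C, against 3.92% of all genes: H2afz, H2afv, H2afx, H1fx and Cenpa. H2afx, the only one of these with a stem-loop match, had 79.2 and 11.2 CPM in dividing and other cells of B (2.82, 2.65 to 2.99) and 98.8 and 13.4 CPM in those of C (2.89, 2.74 to 3.03). The H3.3 genes H3f3a and H3f3b, whose protein is deposited throughout the cycle, had log2 ratios of 0.20 and 0.25 in B and 0.14 and 0.19 in C. Their levels were higher than those of any H3 member: H3f3b had 1274 and 1074 CPM in dividing and other cells of B, where the 11 H3 members summed to 150 and 9.49 CPM. H2afj was lower in dividing cells, with 334 and 416 CPM in dividing and other cells of B (-0.32, -0.36 to -0.27) and 290 and 412 CPM in those of C (-0.51, -0.56 to -0.46), short of the 2-fold threshold. The list as a whole summed to 5967 CPM in dividing cells and 3802 CPM in other cells of B, and to 7893 and 4716 CPM in those of C, more than the cluster genes in every group. These levels count what poly(A) priming caught, which may differ between these genes and the cluster genes.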

How the data were processed

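Single cells were measured with the Chromium 3′ v3.1 kit and cell multiplexing after a sort of live cells, per the labels' protocols. The authors deposited raw UMI counts per gene and barcode as a single matrix. Per the submitters' processing notes, Cell Ranger 6.0.1 and bcl2fastq were used, with builds GRCm38 and mm10. The counting annotation, strand setting and doublet treatment are not given in the sources used here. The matrix has 0 tag features, and the tag libraries were not used here.

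The 3 library tokens match no label, so the matrix was treated as 1 pooled sample. GENCODE M21 named 52403 gene IDs and 233 had no name. The filter required 1000 UMIs, 500 genes and a mitochondrial share (37 genes) not above 15%, and 36540 of 36584 barcodes passed. The list of replication genes is not reported here in full. No doublet caller was run. Group totals of UMIs were scaled to CPM. Intervals are 95% exact Poisson for CPM, exact conditional for a ratio of 2 counts and Clopper-Pearson for shares, and cover counting error only. Ratios in the text carry no pseudocount, while calls use 0.5 CPM. A count of 0 allows 3 counts. Members in full are the 8 most abundant of those raised in B and C and of those raised in neither, any of opposite call in B and C, and the 3 most abundant of each histone type. Other members named were chosen after their values were seen. The members and lists were chosen with earlier results of these data known. The call rule was tested on simulated data. Python 3.11.15, numpy 2.4.6, pandas 2.3.3 and scipy 1.17.1 were used, and TMM factors came from edgeR 4.0.16 (R 4.3.3). Sequences came from GENCODE M21 transcripts and RefSeq promoters on GRCm38.p6.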

Additional observations from a re-analysis of the deposited data

Results flagged for a closer look

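Hist1h2bc had a log2 ratio of dividing over other cells of 0.51 in B, against -0.74 in C, with intervals on opposite sides of 0. The difference between the libraries was not tested, since each is a single library of unknown group.

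UMIs were also assigned to pseudogenes that are not members. Hist1h2al, a processed pseudogene, had 16 UMIs, all 16 in dividing cells, 8 in B and 8 in C, and 0 in other cells. Hist3h2bb-ps had 10 UMIs, 8 in dividing cells and 2 in other cells. Hist1h2al shares stretches of 90 bases with Hist2h2ac and Hist2h2aa1, and Hist3h2bb-ps with Hist3h2ba. Whether these UMIs came from reads of such members was not tested.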

How the results depend on the processing

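No paired analysis was possible because each group has a single replicate and the library tokens match no label. Alternatives were run for the counts of members raised in B and C, in B and in C, and for the summed, S-marker and long and short member log2 ratios, and none of these reversed. The values of single genes, the order of the marker classes and the calls in A were not recomputed. TMM and median of ratios scaling lowered all log2 values by 0.18 and 0.18 in A, 0.20 and 0.18 in B and 0.27 and 0.27 in C, and 33 members remained raised in B and C. Of 34 members raised in B and C, 41 in B and 36 in C, thinning to 2000 UMIs gave 21 in B and C (20 of them among the 34) and 25 in B, a minimum of 50 UMIs gave 22 in B and C, and members with no shared stretch gave 11, 13 and 11, in each case with fewer members that could be called.

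The summed log2 ratio (0.86 in A, 2.13 in B, 2.89 in C) moved beyond its counting interval as follows. At least 2 Top2a or Mki67 UMIs gave 2.43, 2.71 and 3.26 in A, B and C. Top2a alone gave 1.61 in A and 2.33 in B, Mki67 alone 2.35 in B and 2.59 in C, and at least 2 UMIs of the mitosis genes 2.31 in A and 2.54 in B. TMM gave 0.68, 1.93 and 2.62, and median of ratios 0.69, 1.95 and 2.62. Without the 50 most abundant genes in the total it was 2.05 in B and 2.79 in C. Without the deepest 5% of cells it was 0.46, 2.09 and 2.78. Thinning gave 2.37 in B and 2.67 in C, and members with no shared stretch 0.46, 2.01 and 2.20.

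The S-marker log2 ratio (1.08 in B, 1.75 in C) was 0.42 and 1.05 with at least 1 S UMI, 1.35 and 2.14 with at least 3, and 2.04 and 2.28 after thinning. Other limits than 300 bases were added after seeing the data. At 100 bases the long members had 1.89 in B and 2.59 in C and the short ones 3.45 and 4.05. At 500 bases the short ones had 3.51 and 3.97. Without Hist1h1e the long ones had 1.74 and 1.73. In A, dividing cells held 293 of the member UMIs, which limits the values there.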
